A study of Mus musculus with 8 samples.

Results

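Imprinted genes are transcribed mainly from the copy inherited from 1 parent, and 31 of them were followed here in 2-cell mouse embryos whose fathers differed. The genes were taken from a list of imprinted mouse genes, and the rule itself uses measured values only to pick a probeset per gene. The choice of genes was made with earlier results of these data known. They are 31 of 14995 genes that had an array probeset carrying their symbol alone, and each was represented by its brightest such probeset over the 8 arrays. By the parental copy normally active in the mouse, 15 are paternally expressed and 14 maternally expressed. The other 2, Gnas and Grb10, use different parental copies for different promoters or tissues. These classes are general knowledge of the mouse and need not hold in 2-cell embryos. Imprinting of Copg2, Blcap, H13 and Htr2a, counted here as maternally expressed, also depends on tissue or transcript. The same can apply to other members, so the split is approximate.

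Each array held RNA pooled from 26 embryos on average, flushed from the oviducts of superovulated C57BL/6 females 46 to 48 hours after hCG. The fathers were KDM1A TG males (3 arrays), which carry a KDM1A transgene, their nonTG littermates without it (2 arrays), or C57BL/6 males (3 arrays). KDM1A is a demethylase of histone H3 lysine 4. What all groups share is the C57BL/6 mother and the hormone treatment of 5 IU of each gonadotropin. The sources used here give neither the promoter that drives the transgene nor the ages of the animals, and do not say whether each pool had its own father or which embryos inherited the transgene. Sample titles write TG3 and nonTG3 without saying what the number stands for. All p-values thus reflect variation among pools that could be technical in origin. The series asks whether a disturbance of histone methylation during sperm formation is carried to the offspring, and for imprinted genes the comparison shows whether their RNA differed with the kind of father.

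Imprints are DNA methylation marks laid down at control regions in the egg or in sperm. After fertilization most of the genome loses methylation, while the imprints are kept by a machinery that includes the zinc finger protein ZFP57 and its partner TRIM28. Some genes of the early mouse embryo, Gab1 among them, are instead held silent on the maternal copy by histone H3 lysine 27 methylation. In the oocyte the KDM1A paralogue KDM1B is needed for some maternal imprints. A 2-cell embryo still holds RNA that the mother loaded into the egg. The arrays measured total RNA and did not tell the parental copies apart, so loss of an imprint can be seen only as a change of level, and the allele split below is background knowledge.

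Many members lie in shared domains, and 2 of these domains consist here of a gene inside another. Mcts2, a retrogene, sits within H13, and Nnat sits within Blcap. In each pair the inner gene is counted as paternally and the host as maternally expressed, which for the hosts depends on tissue or transcript. The promoters of these 4 genes are shown because in each pair the log2 changes had opposite signs in nonTG against C57BL/6 embryos, a choice made after their values were seen. The sequences are from RefSeq on GRCm38.p6, from 250 bases before to 50 bases after the start, 5′ to 3′, with CpG dinucleotides in capitals.
Mcts2, chr2:152686898-152687197, plus strand: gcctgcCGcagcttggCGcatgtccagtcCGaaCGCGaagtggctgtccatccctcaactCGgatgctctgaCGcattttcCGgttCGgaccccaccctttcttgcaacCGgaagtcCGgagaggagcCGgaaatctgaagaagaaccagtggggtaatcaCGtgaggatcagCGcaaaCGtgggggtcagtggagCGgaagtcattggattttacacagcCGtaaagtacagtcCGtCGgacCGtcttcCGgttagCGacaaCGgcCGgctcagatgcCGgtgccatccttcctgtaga
H13, chr2:152669211-152669510, plus strand: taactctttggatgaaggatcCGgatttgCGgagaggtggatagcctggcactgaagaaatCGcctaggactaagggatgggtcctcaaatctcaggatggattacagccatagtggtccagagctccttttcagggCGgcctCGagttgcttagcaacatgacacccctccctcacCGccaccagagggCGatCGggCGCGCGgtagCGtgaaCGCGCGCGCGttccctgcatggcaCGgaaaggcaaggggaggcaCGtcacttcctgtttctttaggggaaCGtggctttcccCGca
Nnat, chr2:157559828-157560127, plus strand: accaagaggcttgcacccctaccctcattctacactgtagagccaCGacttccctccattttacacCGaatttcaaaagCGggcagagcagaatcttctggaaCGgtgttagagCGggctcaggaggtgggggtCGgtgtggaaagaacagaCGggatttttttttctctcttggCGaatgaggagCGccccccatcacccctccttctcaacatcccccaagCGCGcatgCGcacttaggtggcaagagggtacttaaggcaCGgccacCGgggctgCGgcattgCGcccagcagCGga
Blcap, chr2:157566312-157566611, minus strand: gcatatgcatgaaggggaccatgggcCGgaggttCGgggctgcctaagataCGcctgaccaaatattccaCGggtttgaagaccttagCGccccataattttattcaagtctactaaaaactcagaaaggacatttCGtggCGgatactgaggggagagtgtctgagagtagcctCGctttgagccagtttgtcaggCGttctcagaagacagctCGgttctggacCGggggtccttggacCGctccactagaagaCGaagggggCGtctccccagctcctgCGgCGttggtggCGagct
These windows hold 25 CpG in Mcts2, 21 in H13, 17 in Nnat and 17 in Blcap. The letters TGCCGC, the core recognised by ZFP57 when methylated, were searched on both strands and occur once each in the windows of Mcts2 and Nnat and in neither host window. Of 25 members with 37 promoter windows, 24.3% of windows held these letters, against 11.6% of all 32851 windows. The share was 33.3% of 18 windows of paternally expressed genes (6 windows) and 15.4% of 13 windows of maternally expressed genes (2 windows). Windows of 1 gene were counted separately and can overlap. Mest windows 2 and 3 overlap, and each holds 2 matches. CpG-rich windows had a GC content above 50% and an observed to expected CpG ratio above 0.6. They made up 62.2% of member windows and 33.3% of the windows counted over all genes. A match is a description of letters only.

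The array values are log2 summaries, with medians of 2.73 to 2.86 per array, and the correlation of any pair of arrays over all probesets lay between 0.889 and 0.967. No pair of columns was identical. KDM1A TG replicates 1 and 3 had the widest interquartile ranges, 2.38 and 2.60, against 1.87 to 2.09 on the other arrays. All 31 members had a mean above the filter level of 2.07, the 30th percentile of all probesets, which 11444 of 14995 genes passed. The members were chosen with earlier results of these data known, so this does not describe imprinted genes in general. Of other imprinted genes with a probeset, 10 of 14 maternally and 2 of 5 paternally expressed ones had a mean above that level. On 23 members every array lay above that level. Htr2a (4 arrays), Phlda2 (3), Blcap, Magel2 and Nap1l5 (2 each) and Igf2, Kcnq1ot1 and Mest (1 each) had arrays under it, where a lower value is hard to measure. Zscan4c, a marker of the 2-cell stage, was between 2.72 and 4.45, and Oosp1, an oocyte transcript, between 6.75 and 8.34. Of 16 maternal oocyte genes, 15 had a log2 change below 0 in nonTG against C57BL/6 (median -0.66, all genes 0.04). In KDM1A TG against nonTG 14 lay above 0 (median 0.57, all genes 0.16). In KDM1A TG against C57BL/6 11 lay below 0 (median -0.16, all genes 0.18). The part of this shift in the members' changes was not tested. Markers of other cells were also measured: the mean of 21 oviduct epithelial markers ranged from 5.81 to 6.60 in KDM1A TG, was 6.36 and 6.23 in nonTG and ranged from 5.57 to 6.19 in C57BL/6 arrays.

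The spread of the imprinted genes was close to that of other genes. The range over the 8 arrays ran from 0.72 to 2.2 on the log2 scale, with a median of 1.03, and the median over all genes was 1.14. The spread within groups had a median SD of 0.34 for members and 0.36 for all genes. KDM1A TG replicate 3 gave the highest value for 12 of 31 members, 7 of them maternally and 4 paternally expressed, and for 26.1% of all genes. KDM1A TG replicate 2 gave the highest value for 0 members and for 9.17% of all genes.

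**Figure D1:**
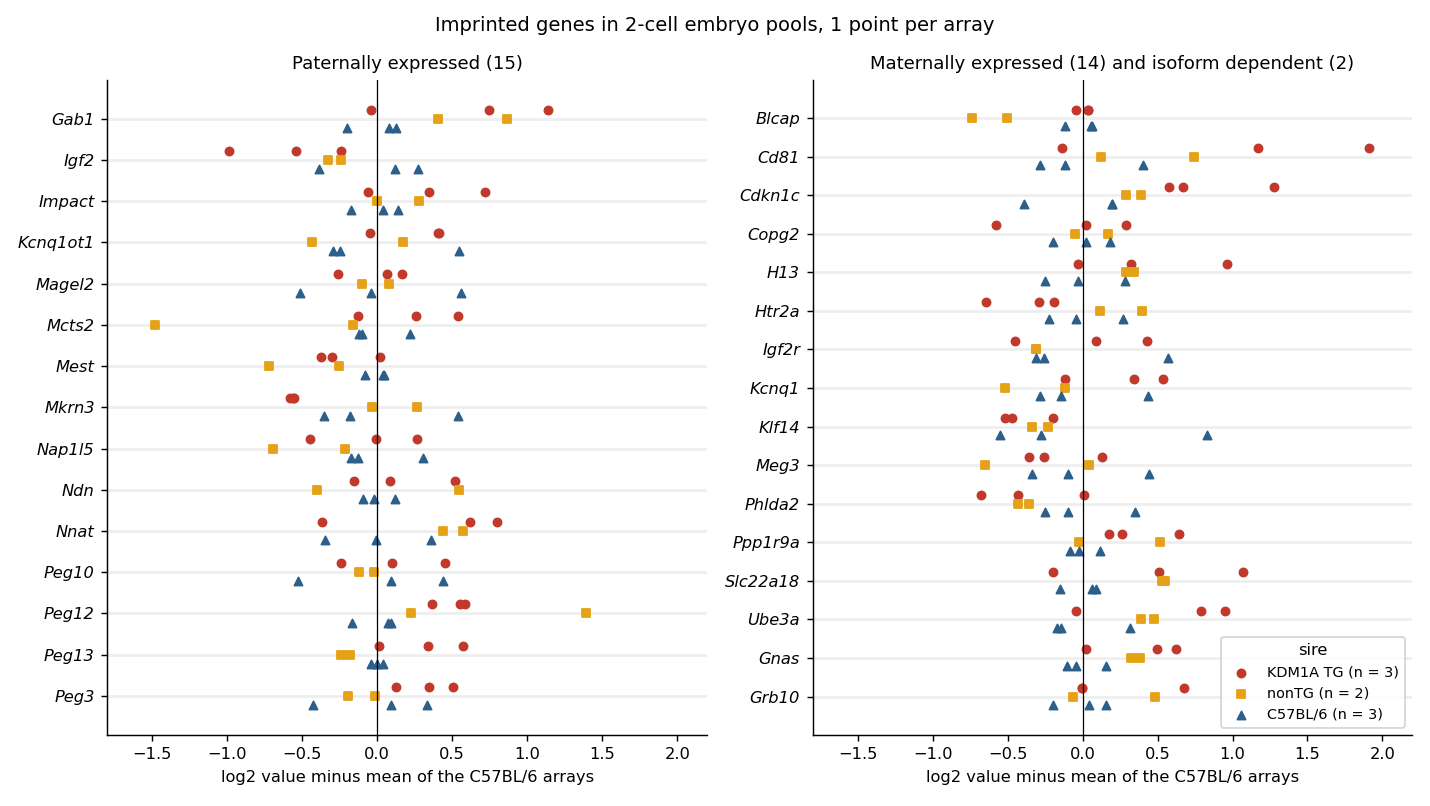
Log2 value of each of 31 imprinted genes on each array, minus the mean of that gene's C57BL/6 arrays, with 1 point per array (circles KDM1A TG, squares nonTG, triangles C57BL/6). Cd81 at 8.13 in a KDM1A TG array lies farthest above the C57BL/6 mean and Mcts2 at 3.08 in a nonTG array farthest below it.

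No imprinted gene passed the test between KDM1A TG and C57BL/6 embryos (0 of 31, n = 3 and 3), where 0.725% of all genes passed. The test was limma's, fitted on all 8 arrays and adjusted by Benjamini-Hochberg over 11444 genes at 0.05. At an unadjusted p under 0.05 there were 2 members (6.45%), both higher in KDM1A TG, against 14.2% of all genes, or 12.1% counted in that direction. For 4 members (12.9%) every array of 1 group lay on 1 side of the other, against 19.8% of all genes. Log2 changes lay between -0.59 and 0.98. Every 95% interval lay within a 4-fold change in either direction, and 16 of 31 lay within a 2-fold change. The fit draws each gene's variance towards a value shared by all genes. The SE was 0.32 to 0.35 for every member, while the members' own spread within groups (SD) ran from 0.1 to 0.72. In all comparisons the intervals therefore do not show each gene's own precision.

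The 2 largest changes were in the Kcnq1 domain of chromosome 7, whose protein-coding members are maternally expressed and whose long noncoding RNA Kcnq1ot1 silences them on the paternal copy. Cd81 encodes a tetraspanin of the cell surface. Its log2 values were 7.39, 6.08 and 8.13 in KDM1A TG, 6.96 and 6.34 in nonTG and 5.93, 6.62 and 6.10 in C57BL/6 arrays. KDM1A TG replicates 1 and 3 stood above all C57BL/6 arrays and replicate 2 lay among them. The log2 change was 0.98 (SE 0.35, 95% interval 0.29 to 1.68, 1.98-fold, adjusted p = 0.189). Without KDM1A TG replicate 2 it was 1.54 and passed (adjusted p = 0.0225), and without replicate 3 it was 0.52 (adjusted p = 0.815). Without replicates 1 and 3 it was -0.13, from the 1 KDM1A TG array left.

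Cdkn1c encodes the cyclin-dependent kinase inhibitor p57, a brake on cell division. It had log2 values of 4.30, 4.21 and 4.91 in KDM1A TG, 4.02 and 3.92 in nonTG and 3.83, 3.83 and 3.24 in C57BL/6 arrays. All KDM1A TG arrays stood above all others, and the nonTG arrays lay between the other groups. The change against C57BL/6 was 0.84 (SE 0.33, 95% interval 0.20 to 1.49, 1.79-fold, adjusted p = 0.231). It ranged from 0.63 to 0.97 when single arrays were left out.

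Stromal and muscle markers moved with these arrays. The mean of 18 such markers was 4.83, 4.57 and 6.2 in KDM1A TG, 5.47 and 4.05 in nonTG and 4.40, 4.49 and 3.74 in C57BL/6 arrays. All 18 had a log2 change above 0 in KDM1A TG against C57BL/6, and 3 passed. With that mean as a covariate the change was 0.26 for Cd81 and 0.50 for Cdkn1c, and with the oviduct mean in its place 0.20 and 0.58. In pooled embryos a different number of cells of a kind and a different amount of RNA per cell cannot be told apart.

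The rest of the Kcnq1 domain had smaller changes, 1 of them below 0. Slc22a18, a membrane transporter, had values of 3.18, 2.47 and 3.74 in KDM1A TG against 2.73, 2.76 and 2.52 in C57BL/6 arrays, with a change of 0.46 (SE 0.33, adjusted p = 0.503). The groups overlapped through KDM1A TG replicate 2. The change was 0.79 without that array, 0.16 without replicate 3, 0.07 with the stromal and 0.05 with the oviduct covariate. Kcnq1, a potassium channel gene, averaged 3.70 ± 0.33 in KDM1A TG and 3.45 ± 0.38 in C57BL/6 (SD, n = 3 each). Phlda2, which limits placental growth, averaged 2.11 ± 0.35 in KDM1A TG and 2.48 ± 0.31 in C57BL/6. Kcnq1ot1 itself averaged 2.68 ± 0.27 in KDM1A TG and 2.43 ± 0.47 in C57BL/6. The 6 changes of the domain ran from -0.37 to 0.98, with 5 above 0, where 64.9% of all genes lay above 0.

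Among growth regulators, Igf2 encodes the fetal growth factor IGF2 and is paternally expressed. It had log2 values of 1.79, 2.54 and 2.24 in KDM1A TG, 2.54 and 2.45 in nonTG and 2.39, 3.05 and 2.90 in C57BL/6 arrays. The groups overlapped, and the change against C57BL/6 was -0.59 (SE 0.33, adjusted p = 0.393), or -0.39 without KDM1A TG replicate 1. Igf2r, the maternally expressed receptor that clears IGF2, had 3.24, 3.78 and 4.12 in KDM1A TG against 3.43, 3.38 and 4.26 in C57BL/6 arrays and a change of 0.02 (95% interval -0.63 to 0.68). Grb10, an adaptor that restrains insulin signalling, averaged 3.1 ± 0.39 in KDM1A TG and 2.88 ± 0.18 in C57BL/6 embryos (SD, n = 3 each). Gab1, a docking protein of receptor tyrosine kinases, had values of 4.25, 3.46 and 4.64 in KDM1A TG, 4.37 and 3.91 in nonTG and 3.30, 3.63 and 3.58 in C57BL/6 arrays. Its change was 0.61 in KDM1A TG (SE 0.33, adjusted p = 0.383), and without KDM1A TG replicates 1 and 3 it was -0.04. It was 0.94 without replicate 2, 0.35 without replicate 3 and 0.21 with either marker covariate.

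The Prader-Willi and Angelman domain of chromosome 7 gave changes on both sides. Mkrn3, a ubiquitin ligase gene known for its role in the timing of puberty, had log2 values of 2.41, 2.43 and 2.44 in KDM1A TG, 2.96 and 3.26 in nonTG and 3.53, 2.81 and 2.64 in C57BL/6 arrays. The KDM1A TG arrays lay below all others. Its change against C57BL/6 was -0.57 (SE 0.32, 95% interval -1.22 to 0.08, adjusted p = 0.412). Without C57BL/6 replicate 1 it was -0.30.

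Peg12 belongs to the FRAT family, which acts in Wnt signalling. It had 3.94, 3.97 and 3.75 in KDM1A TG, 3.61 and 4.78 in nonTG and 3.22, 3.46 and 3.48 in C57BL/6 arrays. Every array of the other fathers stood above every C57BL/6 array, and the change in KDM1A TG was 0.50 (SE 0.33, adjusted p = 0.469). Ube3a, the ubiquitin ligase gene affected in Angelman syndrome, had 5.07, 4.24 and 5.23 in KDM1A TG, 4.76 and 4.67 in nonTG and 4.60, 4.14 and 4.11 in C57BL/6 arrays. The KDM1A TG and C57BL/6 arrays overlapped, with a change of 0.56 (SE 0.33, adjusted p = 0.422), and without KDM1A TG replicates 1 and 3 it was -0.04. It was 0.86 without replicate 2 and 0.37 without replicate 3, and 0.27 and 0.23 with the stromal and oviduct covariates. Ndn and Magel2, both of the MAGE family, had changes of 0.15 and -0.01, with values over the 8 arrays of 2.93 to 3.88 and of 1.75 to 2.82.

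The remaining members in KDM1A TG against C57BL/6 had changes between -0.39 and 0.42. In the Mest domain Mest, a hydrolase-like gene, had -0.22, Copg2, a coatomer subunit, -0.09, and the transcription factor gene Klf14 -0.39, so all 3 lay below 0. Copg2 averaged 5.02 ± 0.45 in KDM1A TG and 5.11 ± 0.19 in C57BL/6, and Klf14 averaged 3.03 ± 0.17 in KDM1A TG and 3.42 ± 0.73 in C57BL/6 (SD, n = 3 each). Peg10, derived from a retrotransposon and needed for the placenta, had 0.10, with values of 2.70 to 3.68 over the 8 arrays. Its neighbour Ppp1r9a encodes the actin-binding neurabin and averaged 4.40 ± 0.25 in KDM1A TG and 4.04 ± 0.10 in C57BL/6, with a change of 0.36 and groups that did not overlap.

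Peg3, a zinc finger gene, averaged 3.32 ± 0.19 in KDM1A TG and 3.0 ± 0.39 in C57BL/6, a change of 0.32. Impact, a regulator of translation, averaged 4.39 ± 0.39 in KDM1A TG and 4.06 ± 0.16 in C57BL/6, a change of 0.33. Both changes were about as large as their standard error of 0.32. The long noncoding RNA Peg13 averaged 3.13 ± 0.28 in KDM1A TG and 2.82 ± 0.04 in C57BL/6 (change 0.31), and Meg3, another, 3.01 ± 0.26 in KDM1A TG and 3.17 ± 0.40 in C57BL/6 (change -0.16). Gnas, which encodes a G protein subunit, averaged 3.06 ± 0.31 in KDM1A TG and 2.68 ± 0.14 in C57BL/6, a change of 0.38. Nap1l5, related to histone chaperones, had -0.06, and Htr2a, a serotonin receptor gene near the filter level, -0.38. Adjusted p lay between 0.563 and 0.937 for these 12 genes, and each had n = 3 per group. The nested genes, whose values follow, had changes of 0.42 (H13), 0.35 (Nnat), 0.22 (Mcts2) and 0.01 (Blcap).

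**Figure D2:**
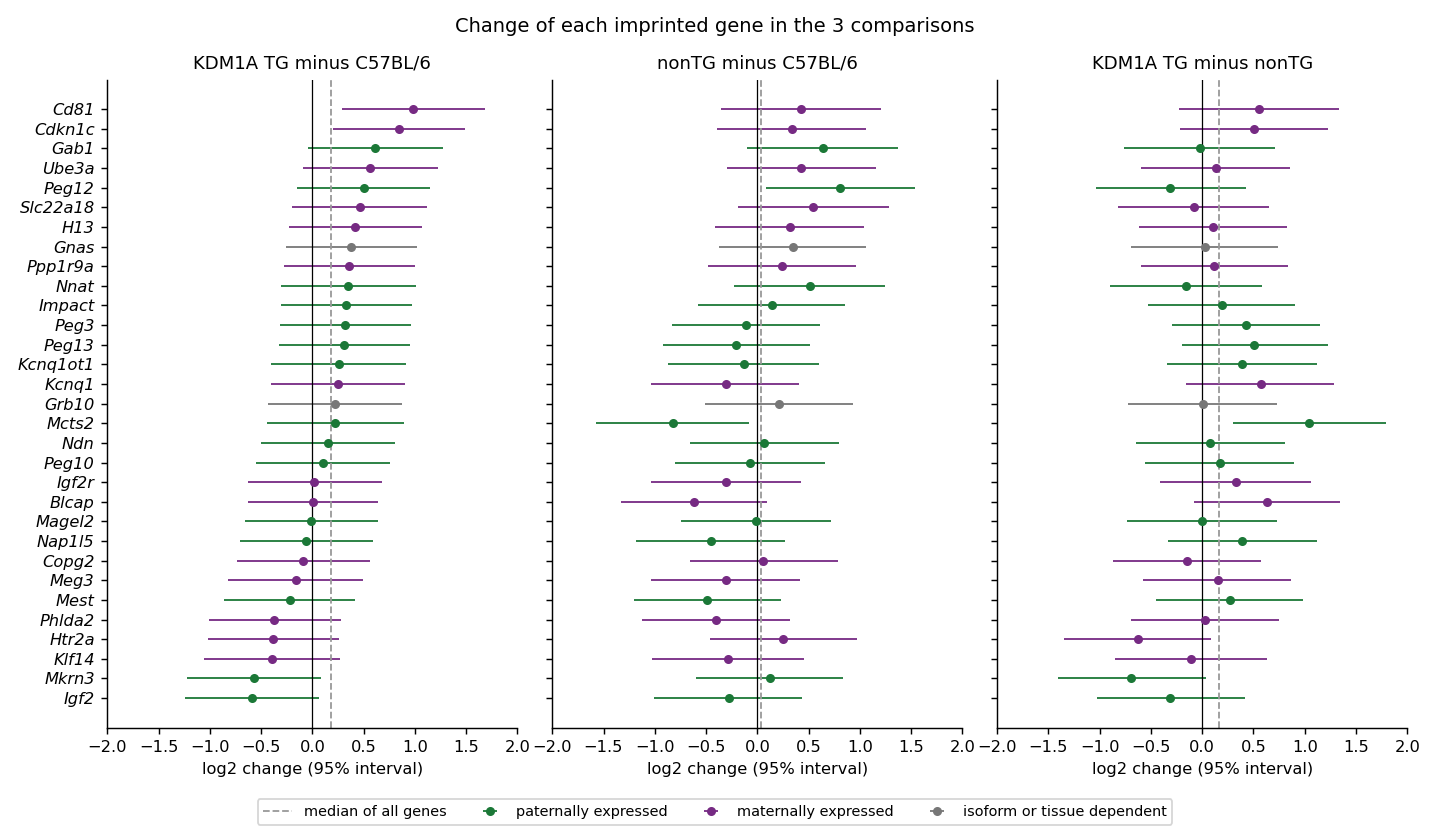
Log2 change with its 95% interval for each imprinted gene in KDM1A TG against C57BL/6, nonTG against C57BL/6 and KDM1A TG against nonTG embryos, coloured by the parental copy normally active. The dashed line is the median change of all genes (0.18, 0.04 and 0.16), and every interval stays inside a log2 change of 2 in either direction.

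In nonTG against C57BL/6 embryos 0 of 31 imprinted genes passed (n = 2 and 3), where 0.131% of all genes did. At an unadjusted p under 0.05 there were 2 members, against 8.22% of all genes. For 14 members (45.2%) the 2 sets of arrays did not overlap, 8 higher and 6 lower in nonTG, against 24.8% of all genes, 15.4% higher and 9.41% lower. The changes of these 14 ran from -0.82 to 0.81. Of the 31 intervals, 12 lay within a 2-fold change and all lay within a 4-fold change. The nonTG and KDM1A TG comparisons share the C57BL/6 arrays.

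The largest change belonged to Mcts2, whose gene family acts in the restart of translation. Its log2 values were 5.10, 4.82 and 4.43 in KDM1A TG, 4.40 and 3.08 in nonTG and 4.44, 4.46 and 4.78 in C57BL/6 arrays. Only nonTG replicate 2 stood far from the others. The change in nonTG was -0.82 (SE 0.37, 95% interval -1.57 to -0.08, adjusted p = 0.545). It was -0.16 without nonTG replicate 2 and -1.48 without replicate 1. H13, the host gene, encodes a signal peptide peptidase and had 4.35, 4.0 and 4.99 in KDM1A TG, 4.37 and 4.32 in nonTG and 3.78, 4.0 and 4.31 in C57BL/6 arrays. Its change in nonTG was 0.32 (SE 0.37, adjusted p = 0.818).

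The other nested pair also had changes of opposite sign in nonTG. Blcap, a small membrane protein gene, had 2.45, 2.45 and 2.37 in KDM1A TG, 1.91 and 1.68 in nonTG and 2.48, 2.47 and 2.30 in C57BL/6 arrays. The nonTG arrays lay below all others and under the filter level, and the change was -0.62 (SE 0.36, adjusted p = 0.666). Nnat, the inner gene, encodes neuronatin of the endoplasmic reticulum. Its values were 4.62, 3.45 and 4.44 in KDM1A TG, 4.26 and 4.39 in nonTG and 3.47, 4.18 and 3.81 in C57BL/6 arrays. The nonTG arrays lay above the C57BL/6 arrays, with a change of 0.51 (SE 0.37, adjusted p = 0.719). That change was -0.01 with the oviduct markers as covariate and 0.33 without C57BL/6 replicate 1.

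Peg12 had a change of 0.81 in nonTG (SE 0.37, 95% interval 0.08 to 1.54, 1.75-fold, adjusted p = 0.546), 0.22 without nonTG replicate 2, which held its highest value, and 1.39 without replicate 1. Gab1 had 0.64 (SE 0.37, adjusted p = 0.667) and Slc22a18 0.54 (SE 0.37, adjusted p = 0.70), both with nonTG arrays above all C57BL/6 arrays. With the oviduct covariate these were 0.23 and 0.14, with the stromal one 0.41 and 0.33, and without nonTG replicate 1 Gab1 had 0.41. Mest had 1.87 and 2.34 in nonTG against 2.64, 2.51 and 2.63 in C57BL/6 arrays, a change of -0.49 (adjusted p = 0.719), or -0.25 without nonTG replicate 1. Nap1l5 had 2.2 and 1.72 in nonTG, a mean under the filter level, against 2.24, 2.72 and 2.29 in C57BL/6 arrays, a change of -0.45 (adjusted p = 0.740), or -0.21 without nonTG replicate 2 and -0.70 without replicate 1. The nonTG arrays of both genes lay below all C57BL/6 arrays.

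Between KDM1A TG and nonTG embryos, whose fathers were littermates, 0 of 31 members passed (n = 3 and 2), where 0.0437% of all genes did. The fathers differed in the transgene, but the pools also differed in other RNA. The maternal oocyte genes had a median change of 0.57 here, against 0.16 for all genes. An effect of the transgene cannot be told apart from other differences between these pools. At an unadjusted p under 0.05 there was 1 member, against 6.41% of all genes, and 7 members had arrays that did not overlap (22.6%), against 22.4% of all genes. Mcts2 had the largest change, 1.04 (SE 0.37, 95% interval 0.30 to 1.79, 2.06-fold, adjusted p = 0.591). It was 0.38 without nonTG replicate 2 and 1.70 without replicate 1.

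Mkrn3 had -0.69 (SE 0.36, adjusted p = 0.792) and ranged from -0.84 to -0.53 when single arrays were left out. Blcap had 0.63 (adjusted p = 0.820) and Htr2a -0.63 (adjusted p = 0.820). The values of Htr2a were 2.01, 1.56 and 1.91 in KDM1A TG against 2.32 and 2.60 in nonTG arrays, the first 3 all under the filter level. Kcnq1 had 3.98, 3.33 and 3.79 in KDM1A TG against 2.93 and 3.33 in nonTG arrays, a change of 0.57 (adjusted p = 0.846), or 0.37 without nonTG replicate 1. Peg13 had 2.83, 3.16 and 3.39 in KDM1A TG against 2.64 and 2.58 in nonTG arrays, without overlap. The changes were 0.51 for Peg13, Cd81 0.55 and Cdkn1c 0.51 (adjusted p = 0.847 each). For Cd81 the arrays overlapped, and without KDM1A TG replicates 1 and 3 its change was -0.56. Without single arrays it ran from 0.09 (KDM1A TG replicate 3) to 1.11 (KDM1A TG replicate 2), and Cdkn1c had 0.29 without KDM1A TG replicate 3.

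**Figure D3:**
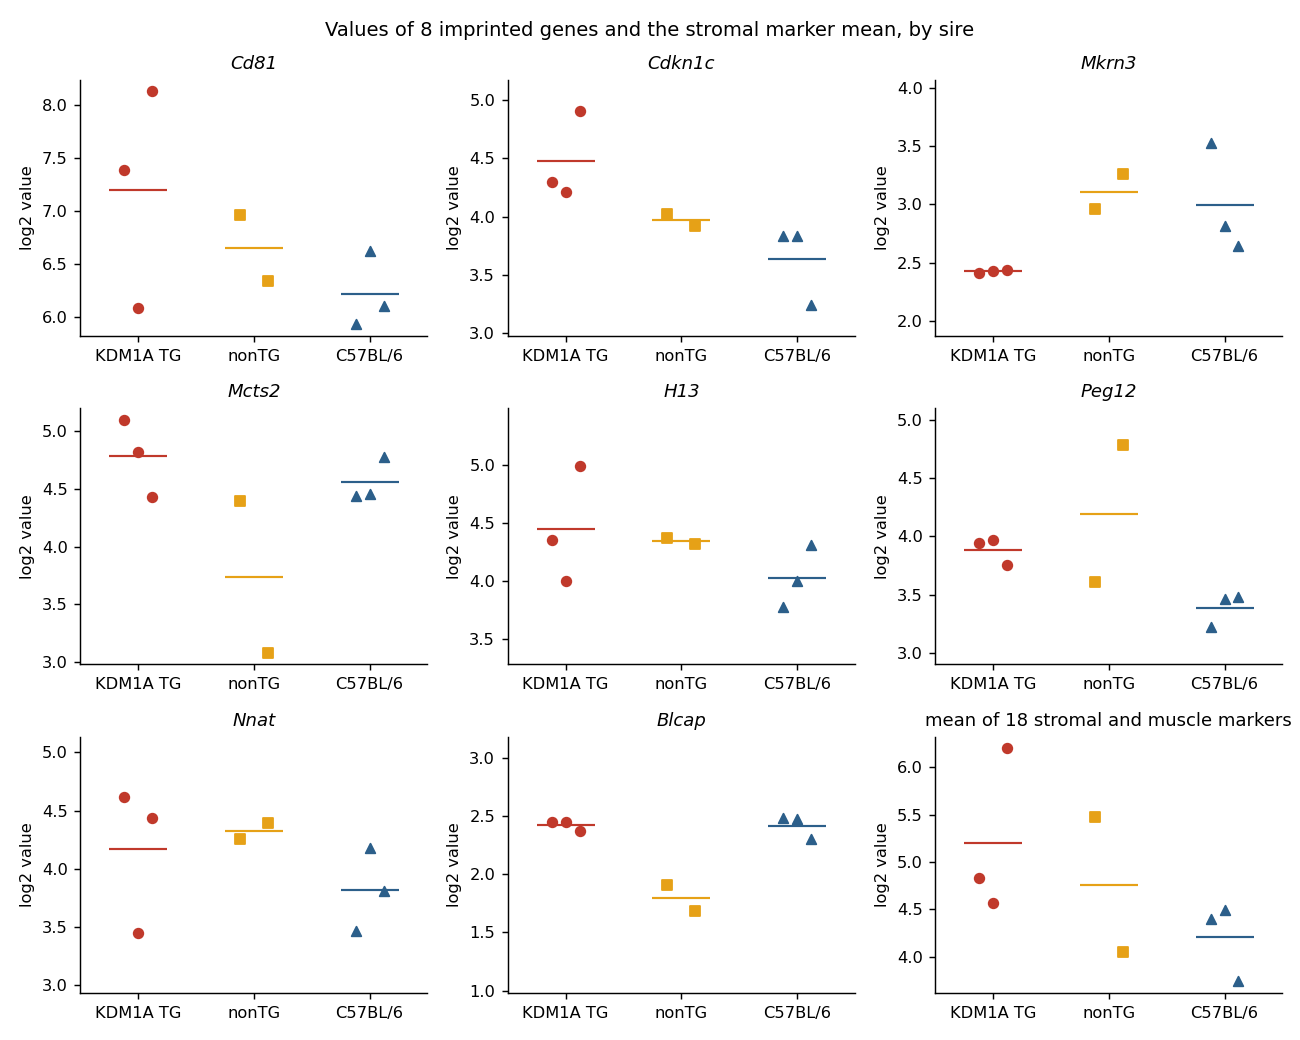
Log2 values of 8 imprinted genes and the mean of 18 stromal and muscle markers, with 1 point per array and a line at the mean of KDM1A TG, nonTG and C57BL/6 arrays. Cd81 and the marker mean both peak in KDM1A TG replicate 3 (8.13 and 6.2), Mkrn3 is lowest in the 3 KDM1A TG arrays (2.41 to 2.44), and Mcts2 is low in nonTG replicate 2 (3.08).

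With KDM1A TG and nonTG embryos as 1 group against C57BL/6 (n = 5 and 3), 0 of 31 members passed, where 1.32% of all genes did. At an unadjusted p under 0.05 there were 4 members (12.9%), all higher in the 5 arrays, against 12.8% of all genes, or 10.1% counted in that direction. These were Cd81 with a log2 change of 0.76 (adjusted p = 0.242), Cdkn1c with 0.64 (adjusted p = 0.348), Gab1 with 0.62 and Peg12 with 0.62 (adjusted p = 0.365 each). Arrays did not overlap for 2 members, Cdkn1c and Peg12 (6.45%), against 8.17% of all genes. Ube3a, Slc22a18, Igf2 and Nnat had 0.51, 0.49, -0.47 and 0.41 (adjusted p = 0.467 to 0.554). Cd81 had 0.48 without KDM1A TG replicate 3, and Nnat 0.24 without C57BL/6 replicate 1. Of the 31 intervals, 23 lay within a 2-fold change.

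Split by parental copy, the members stayed near the median of all genes, and the 2 lists are described without a test. In KDM1A TG against C57BL/6 the median log2 change was 0.22 for the paternally expressed genes, 10 of 15 above 0, and 0.14 for the maternally expressed genes, 9 of 14 above 0. The median of all genes was 0.18, with 64.9% above 0. In nonTG against C57BL/6 the medians were -0.07 (6 of 15 above 0) and 0.15 (8 of 14), against 0.04 for all genes with 53.2% above 0. In KDM1A TG against nonTG they were 0.17 (10 of 15) and 0.12 (10 of 14), against 0.16 for all genes with 65.4% above 0. With both kinds of fathers as 1 group they were 0.10 (9 of 15) and 0 (7 of 14), against 0.12 for all genes with 60.6% above 0. The distance of a list's median from that of all genes was at most 0.12 in these comparisons. For each array, the median deviation of a list's genes from their group means was taken relative to that of all genes. The SD of this value over the 8 arrays, pooled within groups, was 0.09 for the paternal and 0.13 for the maternal list.

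**Figure D4:**
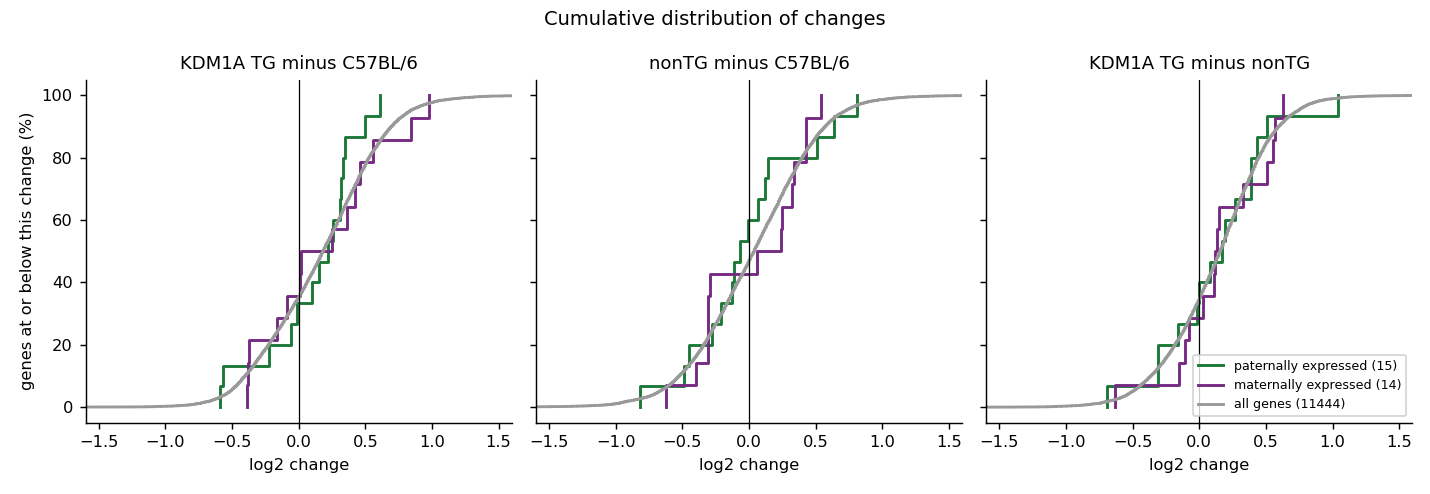
Cumulative share of genes (%) by log2 change for paternally expressed imprinted genes, maternally expressed imprinted genes and all 11444 genes, with 1 panel per comparison. The medians of the paternal list, the maternal list and all genes were 0.22, 0.14 and 0.18 in KDM1A TG against C57BL/6. They were -0.07, 0.15 and 0.04 in nonTG against C57BL/6, with the lists on opposite sides of all genes. In KDM1A TG against nonTG they were 0.17, 0.12 and 0.16.

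Imprinted genes outside the 31 were tested in the same fit. Of the maternally expressed ones 10 were measured above the filter level and of the paternally expressed ones 2, and none passed in any comparison. The 10 had a median change of 0.57 in KDM1A TG against C57BL/6 (8 above 0), 0.17 in nonTG against C57BL/6 (6 above 0) and 0.25 in KDM1A TG against nonTG (10 above 0), against 0.18, 0.04 and 0.16 for all genes. Their mean was 4.55, 4.17 and 4.79 in KDM1A TG, 4.31 and 4.13 in nonTG and 4.13, 4.17 and 3.94 in C57BL/6 arrays. KDM1A TG replicates 1 and 3 were highest, as they were for the oviduct marker mean (6.60 and 6.49, against 5.81 in replicate 2). Dcn, 1 of the 10, is also among the 18 stromal and muscle markers. The part of oviduct or stromal cells in this list was not tested. Casd1, a sialic acid acetyltransferase gene, had the smallest p there, with a log2 change of 0.84 in KDM1A TG (unadjusted p = 0.013, adjusted p = 0.238) and 0.72 in nonTG (adjusted p = 0.619) against C57BL/6. Of 20 tested genes that set or protect imprints, 0 passed in any comparison, and at an unadjusted p under 0.05 there was 1 in KDM1A TG and 1 in nonTG against C57BL/6 and 3 in KDM1A TG against nonTG. These are 5%, 5% and 15% of the list, against 14.2%, 8.22% and 6.41% of all genes. Dppa3 had the smallest p of the list in nonTG against C57BL/6, with a change of -1.11 (SE 0.39, adjusted p = 0.338) and overlapping arrays. In KDM1A TG against nonTG, Uhrf1 had 0.78 (SE 0.37) and Dppa3 0.81 (SE 0.39), with adjusted p = 0.775 each. Both had a smaller unadjusted p there than Trim28. Trim28, the partner of ZFP57, had 6.06, 5.86 and 6.17 in KDM1A TG, 5.05 and 5.56 in nonTG and 5.01, 5.36 and 5.49 in C57BL/6 arrays. All KDM1A TG arrays stood above all others, with a change of 0.74 against C57BL/6 (SE 0.32, adjusted p = 0.282) and 0.73 against nonTG (SE 0.36, adjusted p = 0.775). Zfp57 itself had 4.73, 5.57 and 4.99 in KDM1A TG, 4.58 and 5.37 in nonTG and 5.59, 5.00 and 5.39 in C57BL/6 arrays, with groups that overlapped.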

How the data were processed

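Log2 expression values per probeset were used as deposited. The submitters' processing notes list oligo, RMA, limma and R 3.1.0 with no role for each. Background correction and filters were not given in the sources used here. Groups follow the genotype in the labels. Of 22961 probesets, 15745 carried 1 gene symbol in the platform annotation, 1320 several and 5896 none. Of the members, 3 had a second probeset of their own, and 2 probesets that name a member together with another gene were not used. Genes were kept where their mean exceeded the 30th percentile over probesets.

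A group-means model of all 8 arrays was fitted in limma 3.58.1 (lmFit, eBayes; R 4.3.3), and two-sided p-values of each contrast were adjusted by Benjamini-Hochberg over 11444 genes. For the comparison of both kinds of fathers together, the 5 arrays formed 1 group. Intervals are 95% and not adjusted for the number of genes. They rest on moderated variances, which are drawn towards a value shared by all genes. The number of arrays limits the precision. The contrasts against C57BL/6 were also run on simulated data, whose outcome is not reported here and is not used as support. A member that did not pass can still have changed, as the intervals show.

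Per comparison, full values are given for the 8 members with the smallest p, and up to 4 genes by smallest p could be named from each other list. The members and lists were chosen with earlier results of these data known. Alternatives changed the filter, the scaling, the variance model, the weighting of arrays, the probesets, the groups in the fit and the covariates (replicate number, marker means), or left out arrays. Deviations from group means of KDM1A TG and C57BL/6 arrays of the same replicate number correlated at -0.07, -0.38 and -0.11. Those of KDM1A TG and nonTG correlated at 0.11 and 0.18, and those of nonTG and C57BL/6 at 0.01 and -0.25. Deviations within a group of so few arrays cancel out, so these correlations are constrained and not independent. They cannot decide whether arrays of the same replicate number were collected or processed together. Changes are in log2 units throughout.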

Additional observations from a re-analysis of the deposited data

How the results depend on the processing

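No imprinted gene passed under the alternatives tried, except with array weights and without KDM1A TG replicate 2. With array weights 3 members (Cd81, Gab1 and Mkrn3) passed in KDM1A TG against C57BL/6 with log2 changes of 1.31, 0.82 and -0.77 (adjusted p = 0.00162, 0.0353 and 0.0481), as did 1694 of all genes, and 1 (Cd81, 0.99, adjusted p = 0.015) with both kinds of fathers together, as did 735 of all genes. Leaving out single arrays gave 0 to 1 members in the first comparison (Cd81 without KDM1A TG replicate 2). Counts over all genes in that comparison were 83, against 5 after quantile normalization, 5 after cyclic loess, 151 with median centring and 9 (without KDM1A TG replicate 3) to 262 (without C57BL/6 replicate 2) when single arrays were left out. For nonTG against C57BL/6 these counts were 15, 1, 1, 13 and 3 to 79, for KDM1A TG against nonTG 5, 2, 2, 5 and 2 to 17, and for both together 151, 6, 1, 167 and 17 to 281. The calls split into 75 higher and 8 lower in KDM1A TG against C57BL/6, and into 4 and 1 after quantile normalization or cyclic loess. In nonTG they split into 8 and 7, against 0 and 1, in KDM1A TG against nonTG into 4 and 1, against 2 and 0, and with both as 1 group into 124 and 27, against 5 and 1 (quantile) or 0 and 1 (cyclic loess).

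With the oviduct marker covariate the direction turned for Cd81 (-0.02) and Nnat (-0.11) with both kinds of fathers as 1 group, and for Nnat (-0.01) in nonTG against C57BL/6. Without KDM1A TG replicates 1 and 3, Cd81 (-0.13), Gab1 (-0.04), Ube3a (-0.04) and Slc22a18 (-0.20) against C57BL/6 and Cd81 (-0.56) against nonTG also turned. The cause was not tested.

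The median of the paternally expressed genes, relative to all genes, moved by more than the spread between arrays in these cases. In KDM1A TG against C57BL/6 (0.04) it was 0.16 without a filter, -0.16 with the stromal covariate and -0.09 with the oviduct covariate, and -0.07 to 0.10 when single arrays were left out. In nonTG against C57BL/6 (-0.11) it was 0.02 with the filter at the 50th percentile, -0.21 with the replicate number as a block, and -0.27 to -0.02 without single arrays. In KDM1A TG against nonTG (0.01) it was 0.11 without a filter, -0.10 with the stricter filter, 0.16 without KDM1A TG replicates 1 and 3, and -0.09 to 0.09 without single arrays. With both together (-0.02) it was -0.23 and -0.17 with the stromal and oviduct covariates, and -0.20 to 0.05 without single arrays. The median of the maternally expressed genes in nonTG (0.11) was -0.15 with the dimmest probesets and -0.04 with the oviduct covariate, and -0.03 to 0.12 without single arrays. With both together (-0.12) it was 0.10 with the stricter filter and -0.15 to 0.04 without single arrays. Leaving out a nonTG array left 1, assumed to vary like the other groups, and without nonTG replicate 2 only 30 members passed the filter. Where both kinds of fathers form 1 group, all arrays are in the comparison, so a fit of only the groups compared was not run. The replicate number as a block called 0 members in each comparison. In KDM1A TG against C57BL/6 it could not alter a change, because both groups hold the same replicate numbers. Only the error could differ there, and Cd81 had 0.98 with an adjusted p of 0.233.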

Other observations

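Of the 3 members with a second probeset of their own, Nnat had both well above the filter level. Its second probeset read 3.87, 3.0 and 4.64 in KDM1A TG, 4.12 and 4.85 in nonTG and 4.09, 4.17 and 3.34 in C57BL/6 arrays. The difference from C57BL/6 was -0.03 in KDM1A TG and 0.61 in nonTG by this probeset, and 0.35 and 0.51 by the brighter one, so both gave a positive difference in nonTG and they disagreed in KDM1A TG. The second probesets of H13 and Ube3a had means of 1.98 and 2.03, under the filter level. For H13 that probeset gave -0.36 in KDM1A TG and 0.29 in nonTG (0.42 and 0.32 by the one used), and for Ube3a 0.06 and 0.57 (0.56 and 0.43).

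The following gene was chosen after its values were seen. Snhg14, the long noncoding RNA of the Prader-Willi and Angelman domain that runs against Ube3a on the paternal copy, was outside the 31 genes. It had log2 values of 2.24, 3.65 and 3.17 in KDM1A TG, 2.47 and 2.96 in nonTG and 2.54, 3.1 and 2.57 in C57BL/6 arrays. The groups overlapped, and the change of Snhg14 was 0.28 in KDM1A TG against C57BL/6 (adjusted p = 0.68).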
